A study of Homo sapiens with 2 samples.

Results

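Angiogenesis, the growth of blood vessels from existing ones, is driven by the vascular endothelial growth factors (VEGFs), which are secreted and bind tyrosine kinase receptors on endothelial cells. Angiopoietins act on the TIE receptors of the same cells, and thrombospondins restrain vessel growth. Carcinoma cells are a known source of VEGFA, and VEGFA has been described as a target of both RUNX2 and ATF4. The 10 genes examined here were chosen by name and function, with earlier results of these data known, out of 17240 genes with a named probe. They comprise the ligands VEGFA, VEGFB, VEGFC and PGF, the receptors KDR and FLT1, the co-receptor NRP1, the angiopoietin ANGPT1, the angiopoietin-like protein ANGPTL4 and the inhibitor THBS1. Their probes were found through the RefSeq accession of each spot.

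Cells of the human ovarian adenocarcinoma line SKOV3 carrying a short hairpin RNA against RUNX2 (clone cl-sh3) were compared with a control clone that carried a scramble hairpin in the same pLKO.1-puro vector. Both clones had been made by lentiviral infection and puromycin selection, and each is a single clone. Labelled cRNA of both clones was hybridized together to Agilent whole human genome arrays, with cl-sh3 in Cy5 and the control in Cy3 in hybridization 1 and with reversed dyes in hybridization 2. The 2 hybridizations used the same RNAs, so they count as 1 replicate. No p-value can be given for the clones, and the spread between the hybridizations is technical error alone.

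Values are log2 ratios of cl-sh3 over control, so that -1 is 2-fold lower in cl-sh3, and levels are log2 intensities normalized between dyes and arrays, which can be compared between clones for one probe but not between probes. A probe was kept when the scanner software called the same clone well above background in both hybridizations, and 36060 of 41000 probes were. A kept probe is termed called where both hybridizations passed 2-fold in the same direction. The median log2 ratio of all kept probes was 0.01, and the ratios of a kept probe lay 0.22 apart between hybridizations in the median, the 95th percentile being 0.63. RUNX2, the target of the hairpin, was more than 2-fold lower with 1 of its 3 probes. It had log2 ratios of -2.04 and -1.30 with probe A_32_P161762, whereas the probes A_24_P69267 (0.17 and -0.13) and A_32_P148058 (-0.29 and -0.17) stayed near 0. With A_32_P148058 the control was not well above background in hybridization 2. The study reported lower RUNX2 RNA and protein in this clone by RT-PCR and Western blot. Keratins and other markers of epithelial ovarian carcinoma cells (KRT8, KRT18, KRT19, EPCAM, CDH1, ERBB2, PAX8, WT1 and MUC16) were all well above background in both clones and both hybridizations. The same held for 31350 of the 36060 kept probes, so this flag alone does not set these markers apart.

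ANGPTL4 was 2.45-fold lower in cl-sh3 and was the only one of the 10 genes that passed 2-fold in both hybridizations. VEGFA was lower with each of its 4 probes, by 1.90-fold and 1.85-fold with one pair of probes and by 1.26-fold and 1.19-fold with the other pair. NRP1, which helps VEGFA bind its receptor, was lower with each of its 3 probes, between 1.27-fold and 1.46-fold. The arrays read RNA of whole cultures, so that fewer expressing cells and less RNA per cell cannot be told apart. The remaining 7 genes, with 10 kept probes, had a median log2 ratio of 0.01, and no value of theirs reached 2-fold in either hybridization. Of these 10 probes, 5 were above 0 and 2 below 0 in both, where 29.8% and 27.3% of all kept probes were.

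The 10 genes had 19 probes on the arrays, and 18 of them were kept. Between the dye orientations these 18 probes differed by 0.10 in the median and by 0.66 at most. Of the 18, 1 probe was called lower and 0 were called higher, against 0.394% and 0.122% of all kept probes. By the brightest kept probe of each gene, 1 of 10 genes was called lower and 0 were called higher, against 0.52% and 0.136% of 16153 genes. Ratios were below 0 in both hybridizations for 10 of the 18 probes and above 0 in both for 5, where 27.3% and 29.8% of all kept probes were. The 10 probes below 0 belonged to VEGFA, NRP1, ANGPT1 and ANGPTL4 alone, so that this count follows how many probes these genes have. The median over the 18 probes was -0.13 and that over the brightest probe of each gene was -0.03.

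**Figure D1:**
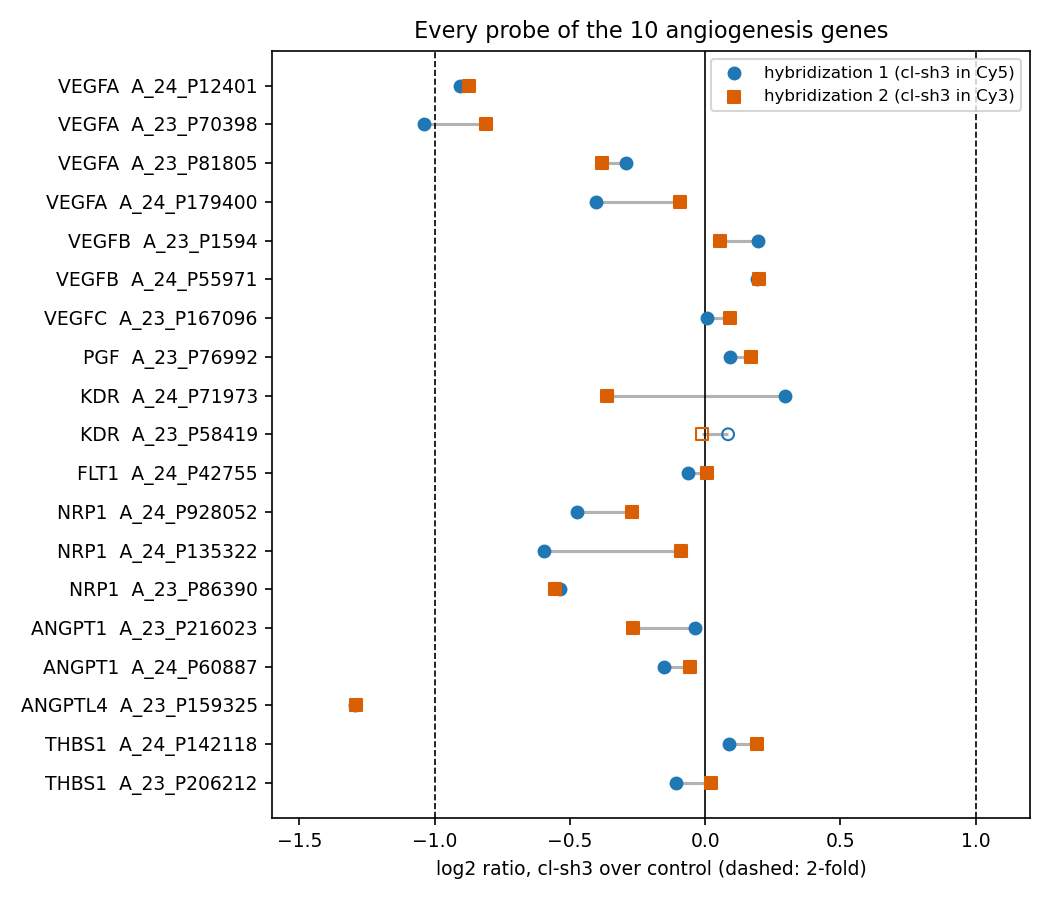
Log2 ratio of cl-sh3 over control (x axis) for each of the 19 probes of the 10 genes (rows), with a circle for hybridization 1, a square for hybridization 2 and open symbols for the KDR probe that was not kept. Both symbols of ANGPTL4 lie to the left of the dashed 2-fold line at -1, and both symbols of every VEGFA and NRP1 probe lie below 0.

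**Figure D2:**
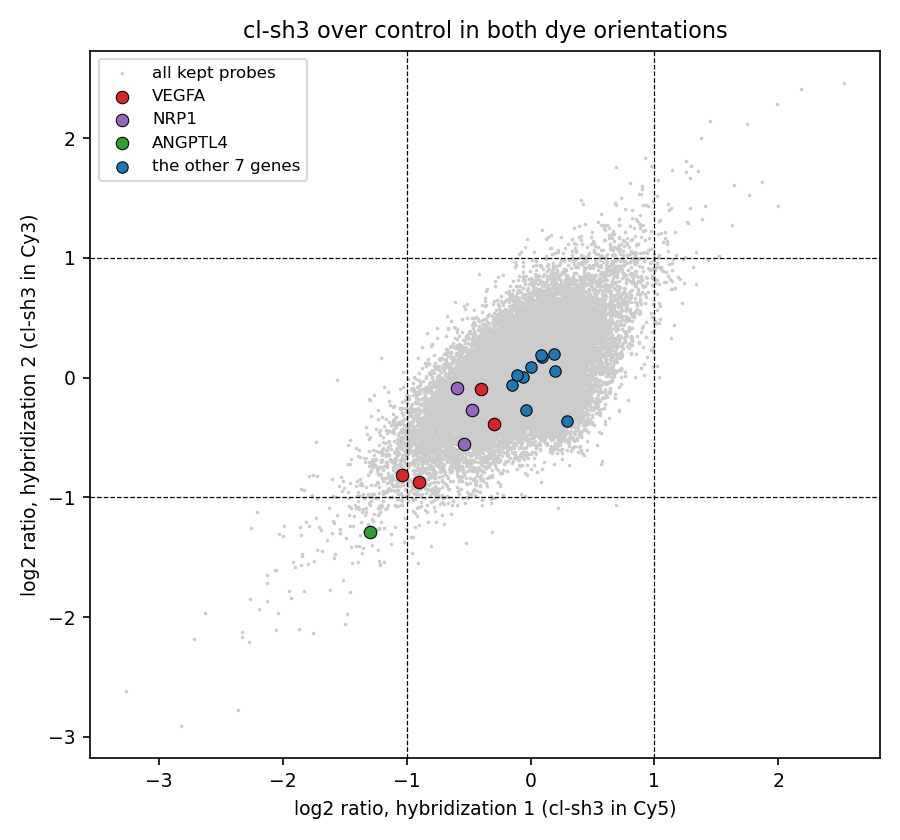
Log2 ratio of cl-sh3 over control in hybridization 1 (x axis) and hybridization 2 (y axis) for 36060 kept probes (grey) and the 18 kept probes of the 10 genes (coloured), with dashed lines at 2-fold. ANGPTL4 lies inside the lower left corner past 2-fold in both, and 2 VEGFA probes lie next to that corner.

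Of the ligands, VEGFA is the main growth factor for endothelial cells and a classical gene of the response to low oxygen. With probe A_24_P12401, its brightest, the VEGFA level was 11.65 in the control and 10.75 in cl-sh3 in hybridization 1, and 11.80 and 10.92 in hybridization 2. With probe A_23_P70398 it was 11.39 in the control and 10.35 in cl-sh3, then 11.01 and 10.20. Both probes thus showed a lower level in cl-sh3 under either dye order, with log2 ratios of -0.91 and -0.87 for the first probe and of -1.04 and -0.81 for the other. Only hybridization 1 of A_23_P70398 passed 2-fold. Their mean ratios of -0.89 and -0.92 ranked 416 and 352 from the lowest of 36060 kept probes.

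The other VEGFA probes read a smaller difference. Probe A_24_P179400, the dimmest, had levels of 8.61 in the control and 8.21 in cl-sh3, then 8.66 and 8.57, or log2 ratios of -0.40 and -0.09. Probe A_23_P81805 was printed in 10 spots per array, which gives a spread within each array. Its spots ranged from -0.47 to -0.15 in hybridization 1 (8 spots without an outlier flag, mean -0.29 ± 0.10 SD) and from -0.46 to -0.30 in hybridization 2 (10 spots, mean -0.38 ± 0.05 SD). All 18 of these spots were below 0, and none was as low as the ratios of the 2 VEGFA probes near 2-fold. The size of the VEGFA difference therefore depended on the probe, beyond the spread of spots on 1 array. The files annotate A_24_P12401 and A_23_P81805 with the accession NM_001025366 and A_23_P70398 and A_24_P179400 with NM_001025370, so each VEGFA accession held 1 probe near -0.9 and 1 near -0.3. Where in the transcript a probe lies is not given in the sources used here.

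**Figure D3:**
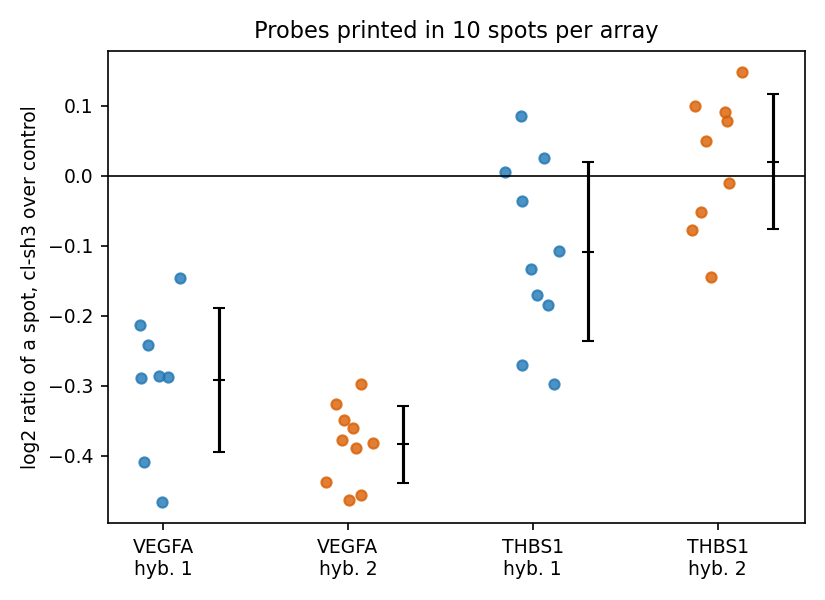
Log2 ratio of cl-sh3 over control (y axis) of single spots of the VEGFA probe A_23_P81805 and the THBS1 probe A_23_P206212, each printed in 10 spots per array, by hybridization (x axis; spots with outlier flags left out), with black bars for mean ± SD over spots. All VEGFA spots lie below 0, and the THBS1 spots lie on both sides of 0.

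The other ligands stayed within 0.20 of 0. VEGFB, a ligand of FLT1, had levels of 14.15 in the control and 14.34 in cl-sh3 with probe A_23_P1594 in hybridization 1, and 14.27 and 14.33 in hybridization 2. Its log2 ratios were 0.20 and 0.06 with that probe and 0.19 and 0.20 with the dimmer A_24_P55971. VEGFC, which drives the growth of lymphatic vessels, read 11.59 and 11.60, then 11.64 and 11.74 (ratios 0.01 and 0.09), so that the clones were alike to within 0.10 under both dye orders. PGF, placental growth factor and another FLT1 ligand, had ratios of 0.09 and 0.17. Each of these 4 probes was above 0 in both hybridizations, by no more than 0.20. The technical SD of 1 log2 ratio, pooled over all kept probes from the 2 hybridizations, was 0.23.

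Among the receptors, KDR transmits most VEGFA signalling in endothelial cells, and FLT1 binds VEGFA tightly but signals weakly. KDR read 10.36 in the control and 10.65 in cl-sh3 with probe A_24_P71973 in hybridization 1, and 10.72 and 10.36 in hybridization 2. The log2 ratios of 0.29 and -0.36 had opposite signs, the RNA in Cy5 being the higher one both times, and their difference of 0.66 was the largest among the 18 probes. The second KDR probe, A_23_P58419, was called well above background only for the clone in Cy3 in each hybridization, was not kept, and had ratios of 0.08 and -0.01. FLT1 was dim, with 408 units in cl-sh3 over a local background of 168 in hybridization 1, and the control was well above background in hybridization 1 only. Its ratios were -0.06 and 0.01. No difference in either receptor was detectable on these arrays.

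NRP1 is a co-receptor for VEGFA and for class 3 semaphorins. Its brightest probe, A_24_P928052, read 13.21 in the control and 12.74 in cl-sh3, then 13.19 and 12.92, or ratios of -0.47 and -0.27. Probe A_23_P86390 read 10.27 and 9.73, then 9.92 and 9.37, and its ratios of -0.54 and -0.55 differed by 0.02 between the dye orders. Probe A_24_P135322 had -0.59 and -0.09, a difference of 0.51. The 3 NRP1 probes thus gave mean ratios of -0.37, -0.55 and -0.34, all lower in cl-sh3 in both hybridizations and all under 2-fold. Their differences between hybridizations were 0.20, 0.02 and 0.51. The mean was larger in size than that difference for all of them but A_24_P135322.

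**Figure D4:**
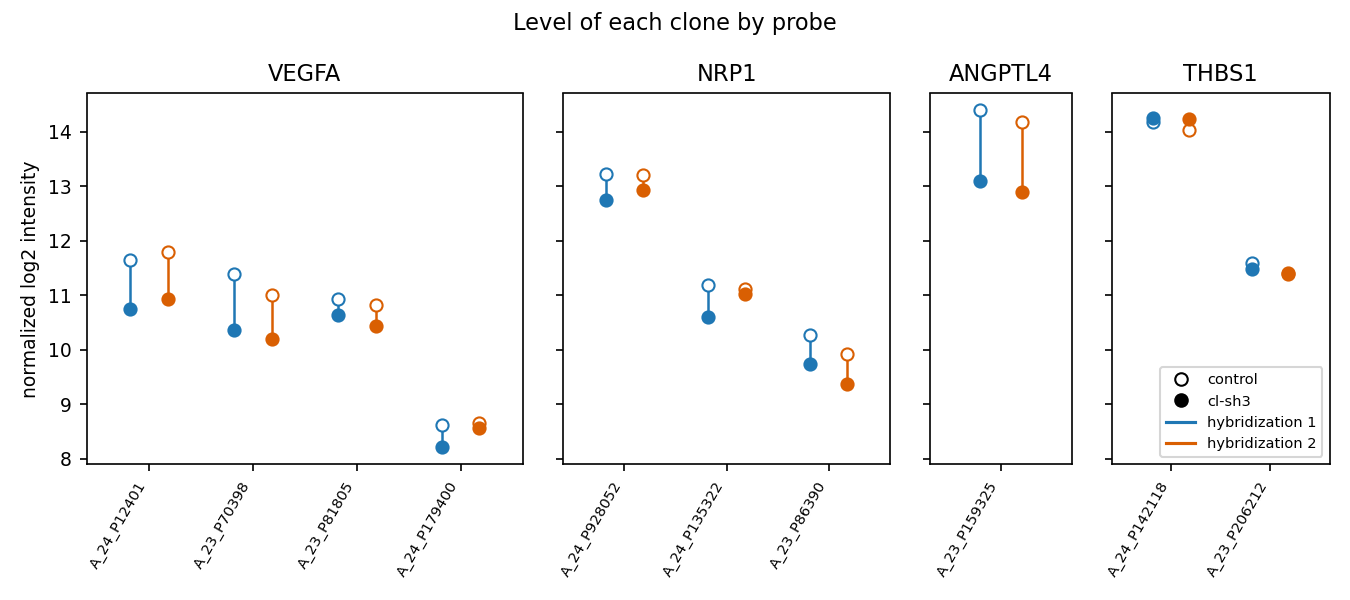
Normalized log2 intensity (y axis) of the control (open circles) and cl-sh3 (filled circles) for each probe of VEGFA, NRP1, ANGPTL4 and THBS1 (x axis), with a line joining the clones of 1 hybridization. The vertical distance is the log2 ratio and heights are comparable within a probe only; cl-sh3 is below the control for all VEGFA, NRP1 and ANGPTL4 probes.

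ANGPT1 activates the receptor TEK and stabilises vessels. With probe A_23_P216023 it read 9.14 in the control and 9.11 in cl-sh3, then 9.35 and 9.08, and with the dimmer A_24_P60887 it had ratios of -0.15 and -0.06, the control being well above background in hybridization 1 only. The mean ratios of -0.15 and -0.11 were smaller than or close to the differences between hybridizations, which were 0.23 and 0.10.

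ANGPTL4 is a secreted inhibitor of lipoprotein lipase that is known to be induced by fasting, by the PPAR nuclear receptors and by low oxygen. Its single probe, A_23_P159325 of accession NM_139314, read 14.39 in the control and 13.09 in cl-sh3 in hybridization 1, and 14.17 and 12.89 in hybridization 2. The unprocessed signals were 16658 in the control and 12497 in cl-sh3 in hybridization 1, where cl-sh3 carried the brighter dye Cy5, and 18024 and 7115 in hybridization 2. The control was the brighter RNA under both dye orders. The log2 ratios of -1.30 and -1.29 differed by 0.01, and their mean ranked 85 from the lowest of 36060 kept probes.

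THBS1, thrombospondin 1, is a matrix protein that inhibits vessel growth. It read 14.17 in the control and 14.26 in cl-sh3 with probe A_24_P142118, then 14.03 and 14.23 (ratios 0.09 and 0.19). Probe A_23_P206212, printed in 10 spots, had means of -0.11 ± 0.13 SD (10 spots) and 0.02 ± 0.10 SD (9 spots), and 7 of 10 and 4 of 9 spots were below 0. The difference read by this probe was not larger than its spread of spots, and the first probe, with a mean of 0.14, had 1 spot per array.

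The promoter windows of 7 of the 10 genes were listed in the RefSeq table of GRCh38.p14, from 250 bases before to 50 after the transcript start, with 2 windows for PGF. VEGFA, NRP1 and ANGPT1 had no entry. Both strands were searched for the RUNX core TGTGGT, for the composite C/EBP-ATF element TGATGNAA bound by ATF4 and for the hypoxia response core ACGTG, which were held by 13.1%, 3.62% and 21.4% of 35116 promoter windows of this length. Among the 8 windows of the 10 genes, a match was found for 2. ANGPTL4 held the hypoxia core on the reverse strand, with its first base at -234 from the start, and neither of the other motifs. KDR held the RUNX core 35 bases into the transcript and neither of the other motifs. These 2 windows are shown because one belongs to the called gene and the other holds the only RUNX match, on chr19:8363905-8364204 (+ strand) and chr4:55125546-55125845 (- strand), each written 5′ to 3′ on the strand of its gene, with the motif match in capitals.
ANGPTL4: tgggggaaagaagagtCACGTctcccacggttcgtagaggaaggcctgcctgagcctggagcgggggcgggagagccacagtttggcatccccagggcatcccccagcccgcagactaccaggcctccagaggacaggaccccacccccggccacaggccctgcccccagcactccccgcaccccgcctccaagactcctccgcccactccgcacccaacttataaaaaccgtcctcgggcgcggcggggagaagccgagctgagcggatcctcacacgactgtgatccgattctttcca
KDR: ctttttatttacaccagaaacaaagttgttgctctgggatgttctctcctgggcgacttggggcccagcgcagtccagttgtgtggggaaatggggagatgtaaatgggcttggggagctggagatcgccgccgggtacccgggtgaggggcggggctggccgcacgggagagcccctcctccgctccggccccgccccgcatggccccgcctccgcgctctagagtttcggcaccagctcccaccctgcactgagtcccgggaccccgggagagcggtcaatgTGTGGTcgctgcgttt

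The GC content of the ANGPTL4 window was 66.3% with 20 CpG, and that of the other 7 windows lay between 65% for KDR and 84.7% for VEGFB, above the median of 58.7% over all windows. A match of these letters describes the window and does not show a binding site.

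The other genes of the pathway were taken from 5 lists with 75 genes, of which 68 had a kept probe. These lists were also chosen with earlier results of these data known. By the brightest probe, 1 of the 68 was called lower and 0 were called higher, beside 0.52% and 0.136% of all genes, and their median log2 ratio was 0.00. The called gene was FGF2, fibroblast growth factor 2, a strong endothelial mitogen, with ratios of -1.16 and -1.09. Ratios were below 0 in both hybridizations for 19 genes, above 0 in both for 18 and of opposite sign for 31. Of all 16153 genes, 28.4% were below 0 in both and 30.9% above. The same shares over all genes stand beside the counts of each single list below.

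Of the VEGF family, VEGFD (0.10 and -0.09), the lymphatic receptor FLT4 (-0.03 and 0.05) and the co-receptor NRP2 (-0.19 and -0.34) did not reach 2-fold by their brightest probes. The median of these 3 genes was 0.01. The other NRP2 probes had ratios of opposite sign, at -0.49 and 0.06, 0.12 and -0.15, and 0.13 and -0.11. Of 11 further angiopoietins, angiopoietin-like proteins and TIE receptors, 9 had a kept probe, 0 were called and the median was -0.02. ANGPT2, which antagonises ANGPT1, had ratios of -0.69 and -0.45. Its mean of -0.57 became -1.08 with the scanner software's own ratios, where it was called lower and ANGPTL4 stood at -1.27. Only 1 of the 2 ANGPT2 probes was kept. That probe was dim, at 8.09 in the control and 7.40 in cl-sh3, then 7.78 and 7.33, and its ratio depended on the processing. In the main processing, ANGPT4 (0.24 and 0.25), ANGPTL1 (0.08 and 0.30), ANGPTL2 (0.12 and -0.15), ANGPTL5 (0.00 and -0.04), ANGPTL6 (0.10 and 0.17), ANGPTL7 (0.03 and -0.53) and ANGPTL8 (-0.05 and 0.07) all lay within 0.25 of 0 in their mean. The receptor TEK had 0.02 and -0.29, and TIE1 was not kept.

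Of 6 further thrombospondins and thrombospondin receptors, 5 had a kept probe with a median of -0.44, and 0 were called. CD47, a receptor of THBS1, had ratios of -0.99 and -0.72 with its brightest probe and -0.38 and -0.16 with another. THBS4 had -0.76 and -0.41, COMP -0.31 and -0.57, THBS2 0.16 and -0.38, and THBS3 0.35 and -0.08, while CD36 was not kept. A second COMP probe had a mean of 0.11. When the kept probes of each gene were averaged, the median of the list was -0.16.

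Of 28 other secreted pro-angiogenic factors, 26 had a kept probe, with a median of 0.00. Ratios were below 0 in both hybridizations for 9 and above 0 in both for 8, beside 28.4% and 30.9% of all genes. Next to FGF2, the lowest mean was that of the chemokine CXCL8 (-1.05 and -0.84). The matricellular protein CCN2 (0.95 and 1.16) had the highest mean and passed 2-fold in hybridization 2 only, followed by the growth factor HBEGF (0.22 and 0.61). Of 27 endogenous inhibitors of angiogenesis, 25 had a kept probe, with a median of 0.04 and 0 called. Their lowest means were those of the protease ADAMTS1 (-1.20 and -0.63) and the matrix protein SPARC (-0.31 and -0.83), and their highest those of the semaphorins SEMA3A (0.57 and 0.65) and SEMA3B (0.41 and 0.37), which are ligands of neuropilins. The dimmer SEMA3A probe had ratios of -0.13 and 0.42, and the dimmer SEMA3B probe had 0.33 and 0.99.

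**Figure D5:**
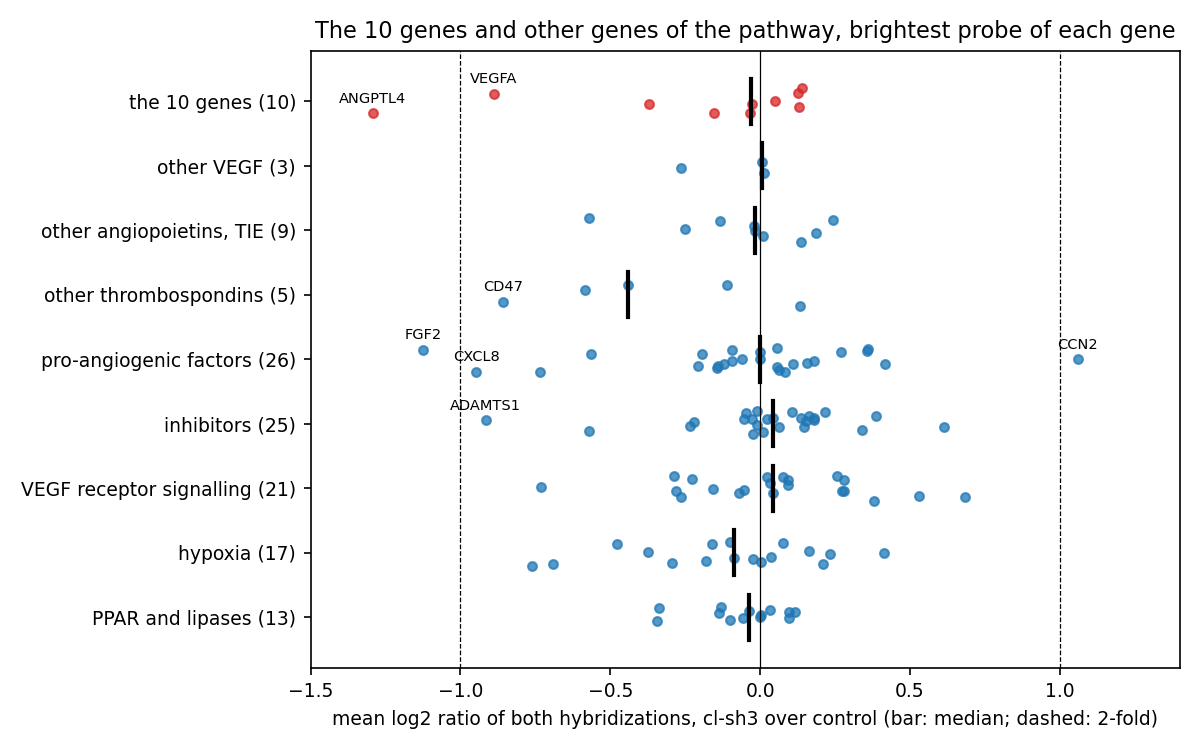
Mean log2 ratio of both hybridizations (x axis) by the brightest kept probe of each gene, for the 10 genes (red) and for the lists of other pathway genes (blue; number of genes in brackets), with a black bar at the median of each list, dashed lines at 2-fold and names where the ratio is beyond 0.84 in size. The medians lie near 0 except for the 5 genes of the list of other thrombospondins and thrombospondin receptors, at -0.44. Of the 10 genes, ANGPTL4 and VEGFA lie apart to the left.

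Low oxygen is a known inducer of VEGFA and ANGPTL4, and 17 genes of the hypoxia response were all kept. Their median ratio was -0.09, and 0 were called, beside 0.52% of all genes called lower and 0.136% called higher. The transcription factor subunit HIF1A had ratios of -0.55 and -0.83, and EPAS1, its relative, had -0.38 and -0.58 with its brightest probe and -0.09 and 0.13 with another. P4HA1, a collagen prolyl hydroxylase, was the lowest (-1.06 and -0.46). The oxygen sensor EGLN2 was the highest (0.34 and 0.49), followed by PDK1 (0.32 and 0.14, with a mean of -0.21 for another probe). The list's median turned to 0.03 when arrays were centred on the median instead of by loess, and to 0.01 with hybridization 2 alone.

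The cultures were of a carcinoma line, and markers of other cell types were read beside it. Of 9 endothelial markers, 8 were kept and TIE1 was not, 7 of the 8 were called well above background in both clones and both hybridizations, and their mean ratios lay between PECAM1 (-0.15) and VWF (0.18), with 0 called. That flag was also set for 31350 of the 36060 kept probes. Both RNAs came from clones of the SKOV3 line, so the flag does not show that endothelial cells were present. For 5 kept of 7 fibroblast markers the mean ratios lay between COL1A2 (-0.30) and LUM (0.08), PDGFRB was not kept and no probe was matched to COL1A1. Of the 9 epithelial markers, KRT19 (0.50 and 0.86) and KRT18 (0.54 and 0.44) had the highest means and ERBB2 (-0.86 and -0.45, with 0.26 and 0.18 for another probe) the lowest. Their median was 0.34, and 0.06 with hybridization 1 alone.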

How the data were processed

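Of the series, which compared cl-sh3 with the control clone on 1 slide, both hybridizations were used. The authors scanned the arrays and deposited, per the file headers, the median pixel intensity of each spot and its local background as read by Feature Extraction 10.5.1.1 (the labels name version 8.5.1.1), not normalized, with flags and the log10 ratio of Cy5 over Cy3 from that software. A second file deposited by the authors holds log10 ratios and equals the software's to within 0.00245 and 0.005. Its normalization beyond this is not given in the sources used here.

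Background was corrected with normexp (offset 50, which draws the ratios of dim probes towards 0) in limma 3.58.1 under R 4.3.3. Control spots were then removed, 153 and 144 spots with outlier flags left out, each array normalized by loess and the spots of a probe averaged. Levels of each clone were set on 1 scale with Aquantile, which leaves ratios as they are. A clone was taken as well above background where at least 50% of the spots of a probe carried the flag that Feature Extraction sets for it. The median signals were 451 (Cy3) and 902.5 (Cy5) in hybridization 1 and 507.5 and 684 in hybridization 2, over backgrounds between 43 and 166.5, with 0 saturated spots. The number of arrays limits the technical precision, and with 1 independent replicate the spread between clones is not known.

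Accessions were named without versions through a RefSeq table of GRCh38.p14 (18024 of 19228 RefSeq accessions), and NM_004348 as RUNX2 through its description in the study's supplementary list. The arrays were annotated on another build, so no gene coordinates of GRCh38.p14 are given beyond the promoter windows. The processing was tested on simulated data with changes larger than 2-fold and noise smaller than the technical SD of 0.23. That test does not cover differences under 2-fold. Tables were handled with Python 3.11.15 and pandas 2.3.3.

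The genes and lists were chosen with earlier results of these data known. Named are all 10 genes with every probe, RUNX2, all genes of the first 3 pathway lists but 1, which is not reported here, and from the other lists the genes past 2-fold in both hybridizations and the 2 highest and 2 lowest means. EPAS1, PPARA, PPARD, PPARG, LPL and the other probes given for some of the named genes fall outside this rule, and were chosen after their values were seen. Alternatives were offset 0, no background correction, median centring, flagged spots kept, no detection filter, a filter on both clones, the software's ratios, the deposited table, single hybridizations, the 2-fold rule applied to their mean, and averaging the kept probes of a gene.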

Additional observations from a re-analysis of the deposited data

How the results depend on the processing

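ANGPTL4 was at least 2-fold lower under each of the 11 alternatives run on its probe, with log2 ratios from -1.30 to -1.20. Each VEGFA and NRP1 probe kept its sign under every alternative run on it. Of 197 alternative values of single probes, 7 changed sign, in 1 probe each of ANGPT1, FLT1, KDR and THBS1, all of them ratios near 0 or, for KDR, opposite in the 2 hybridizations. The median of the 10 genes was -0.03 with the main processing and lay between -0.13 (hybridization 2 alone) and 0.00 (no background correction) under the alternatives. Each hybridization alone gave 1 to 2 probes of the 10 genes at least 2-fold lower, 1 to 3 other pathway genes at least 2-fold lower and 0 to 1 higher. In hybridization 1 alone the added ones were the VEGFA probe A_23_P70398 (-1.04), CXCL8 (-1.05) and ADAMTS1 (-1.20). With the software's log ratios and with the deposited table, 2 other pathway genes were at least 2-fold lower, ANGPT2 (-1.08) being added to FGF2, and 1 was higher, CCN2. CCN2 was also the 1 gene higher with median centring, with the mean of both hybridizations in the 2-fold rule and in hybridization 2 alone; the cause was not tested. No paired analysis was possible because the result comes from no test: both hybridizations hold the same 2 RNAs. Of 132 alternative values of list medians, 15 changed sign, in 7 of 11 lists, so no direction is read from a list median near 0. FLT1 and the ANGPT1 probe A_24_P60887 were well above background in the control in hybridization 1 only, which limits their ratios. In hybridization 2 the control was in Cy5, the channel with the lowest share of spots well above background (77.3%). Clone and dye cannot be told apart in this flag.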

Other observations

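Genes downstream of the VEGF receptors and genes linked to the known regulation of ANGPTL4 were also examined. Of 21 genes of VEGF receptor signalling, all 21 were kept, with a median log2 ratio of 0.04. None was called, beside 0.52% of all genes called lower and 0.136% called higher. Ratios were above 0 in both hybridizations for 8 and below 0 in both for 5, beside 30.9% and 28.4% of all genes. The highest were HSPB1 (0.83 and 0.54), a small heat shock protein that is phosphorylated downstream of KDR, and the GTPase CDC42 (0.72 and 0.33). The 3 kept HSPB1 probes had means from 0.63 to 0.68, and those of the CDC42 probes ranged from 0.05 to 0.53. The lowest were the kinase MAP2K1 (-0.83 and -0.63) and the adaptor NCK1 (-0.56 and -0.02).

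Of 14 PPAR factors, PPAR targets and lipases, 13 were kept, with a median of -0.04 and 0 called. The shares of all genes were 0.52% called lower and 0.136% called higher. PLIN2 (-0.45 and -0.24) and PDK4 (-0.12 and -0.56), which like ANGPTL4 are known PPAR targets, had the lowest means, and FABP4 (0.14 and 0.09) and CREB3L3 (0.11 and 0.08) the highest. PPARA (-0.04 and -0.22), PPARD (-0.02 and -0.10) and PPARG (-0.12 and 0.31) stayed under 2-fold. Another probe of PPARA (-0.25 and 0.38) and another of PPARD (0.29 and 0.16) had means above 0. The LPL probe, for the lipase that ANGPTL4 inhibits, was not kept.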
